A study of Rattus norvegicus with 9 samples.

Results

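Knee cartilage from rats that had been operated and then treated with Shengyu decoction (SYD, an herbal extract given by gavage) was compared with knee cartilage from control rats. The comparison rests on 6 of the 9 RNA-seq libraries of the series, 3 of the SYD group and 3 of the control group, and on all genes of the deposited expression table. Of the 32043 genes in the table, 21722 had a value above 0 in at least 1 of the 6 libraries. A mean of 0.5 FPKM over the 9 libraries was reached by 13898 genes, which were tested. FPKM are fragments per kilobase of gene, here scaled to an effective library size that is not the number of reads. All animals were male Sprague-Dawley rats, 8 weeks old when bought. In the SYD group, knee osteoarthritis (KOA) was induced in the left knee by the modified Hulth method, in which the medial collateral and anterior cruciate ligaments are cut out and the medial meniscus is removed, followed by daily forced activity. SYD was then given for 4 weeks, and tissue was taken 8 weeks after surgery. The labels carry no dose. The study's results name the high dose for the sequenced group, whereas in its methods no treated group is listed among those sequenced. The joint capsule of control rats was only opened and sutured, so the control is a sham-operated joint. Forced activity is described for the KOA model and not for the control rats. Surgery, forced activity and treatment therefore cannot be told apart in this comparison. The third group, the model group, had the surgery without SYD and is used here only for values set beside those of the SYD group.

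Articular cartilage is made by chondrocytes, which lay down a matrix of type II collagen and the proteoglycan aggrecan. Below it lies the subchondral bone, in which osteoblasts build and osteoclasts resorb mineralized matrix and whose marrow forms red cells, granulocytes and B cells from dividing precursors. In osteoarthritis the cartilage thins, matrix-degrading enzymes such as collagenases and aggrecanases are made, and fibrous tissue, vessels and bone are remodelled around it.

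The labels give cartilage as the tissue, and their note on RNA extraction speaks of retina. Only 1 of the 15 photoreceptor genes listed reached the filter, and the list summed to 2.28 to 6.16 FPKM in the 6 libraries. Cartilage genes were present in every library but at very uneven levels, as the 23 listed cartilage genes summed to 13144, 549 and 6783 FPKM in control libraries and to 1747, 1070.2 and 240.0 FPKM in SYD libraries. Control library 2 therefore held less cartilage RNA than the other control libraries and lay within the range of the SYD libraries. Genes of marrow cells were abundant in the control libraries. The listed B lineage genes summed to 630 to 845 FPKM in control and 57.9 to 110 FPKM in SYD libraries, whereas erythroid sums overlapped between the groups. Skeletal muscle genes were found in both groups. The tissue content of each library was not measured, and in bulk samples fewer cells of a type and less RNA per cell cannot be told apart. Between 14914121 and 19510537 reads per library lay on genes, of which the mitochondrial genes took 4.07%, 4.86% and 4.05% in control libraries and 23.7%, 34.7% and 72.7% in the SYD libraries (exact permutation test, two-sided, p = 0.1, the lowest p possible with 3 libraries in each group). The number of genes above 0 was 18909 to 19337 in the control and 13288 to 16596 in the SYD libraries, and SYD library 3 had both the fewest genes and the highest mitochondrial share. The part of the mitochondrial share and of the uneven marrow and cartilage content in the differences below was not tested. Nothing in the labels says that the 3 libraries of a group came from different animals, so p-values measure the spread between these libraries.

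**Figure D1:**
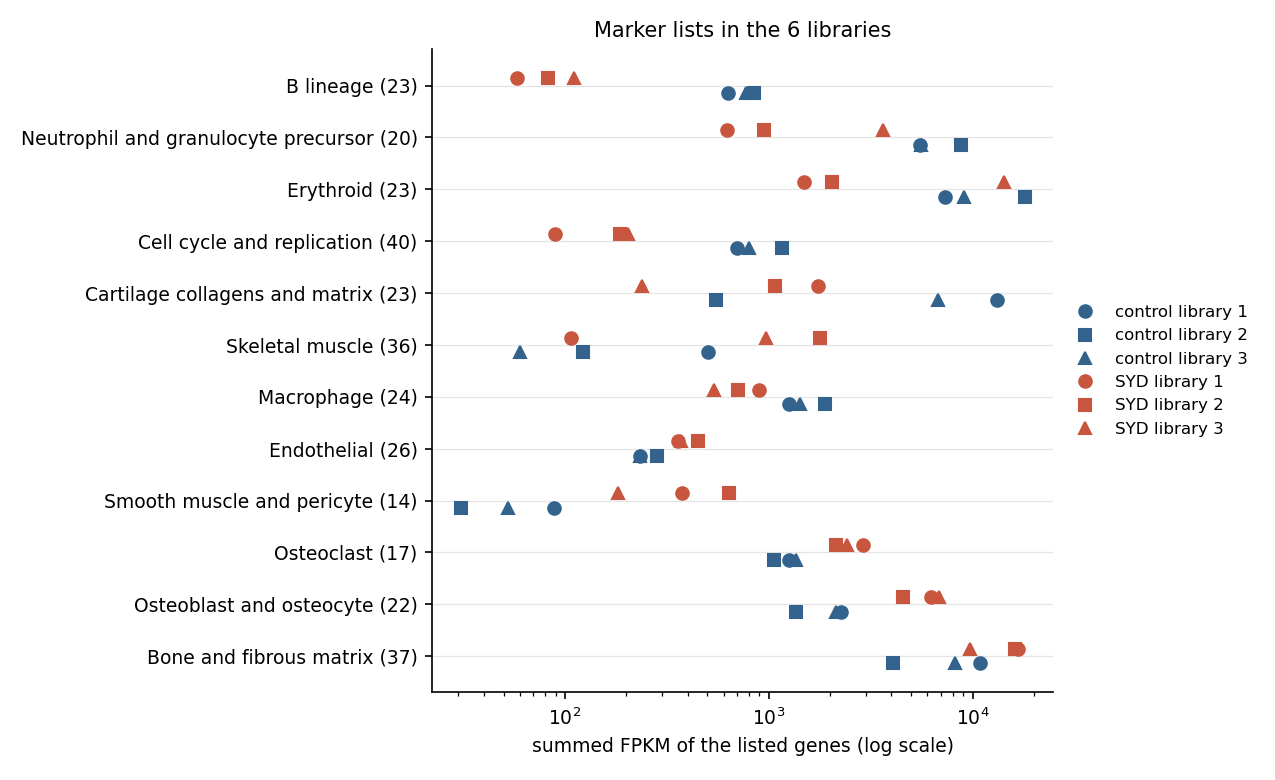
Summed FPKM of 12 marker lists in each control (blue) and SYD (red) library, on a log axis, with the number of genes found in the table in brackets. The B lineage, cell cycle and neutrophil sums are lower in every SYD library, the smooth muscle, osteoclast and osteoblast sums are higher in every SYD library, and the cartilage and skeletal muscle sums overlap between the groups.

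A total of 2407 of the 13898 tested genes (17.3%) had an adjusted p under 0.05 in limma with Benjamini-Hochberg adjustment. Of these, 1077 genes (7.75%) were raised and 1330 genes (9.57%) were lowered in the SYD group. These percentages are the background against which the count of each gene group is read. Changes are given as log2 fold changes on the log2(FPKM + 1) scale, SYD minus control, which understate the change of genes with low FPKM. The median size of the change was 1.19 among raised and 1.30 among lowered genes, and 124 raised and 269 lowered genes changed by more than 2. In 5900 genes (42.5%) the 3 SYD libraries did not overlap the 3 control libraries, with SYD above in 20.3% and below in 22.2%. By an unadjusted p under 0.05 together with an absolute log2 fold change over 1, 7.25% of genes were raised and 9.22% lowered. The median log2 fold change over all tested genes was 0. When FPKM was rescaled to TPM, which counts the mitochondrial transcripts in the total of each library, this median was −1.31, and 97.8% of the 2652 calls were falls against 55.3% of the calls on FPKM as deposited. Directions of gene groups are therefore stated relative to the median of all genes. After this rescaling 0 members of the bone and fibrous matrix, smooth muscle, osteoclast, endothelial, angiogenic, immediate-early and inflammatory lists and 1 each of the protease and TGF-beta lists were raised in limma, although the medians of these lists were 0.84 to 2.17 above that of all genes. In a fit of all 9 libraries these lists had 0 to 3 raised members, and the cell cycle, B lineage, neutrophil and erythroid lists had 14, 10, 6 and 2 lowered members. The number of calls changed when 1 library was left out, which also leaves fewer libraries to the test. Leaving out control library 1, 2 or 3 gave 758, 592 and 209 calls, and leaving out SYD library 1, 2 or 3 gave 1640, 1587 and 3526 calls. In the same order, genes with an unadjusted p under 0.05 in limma numbered 3917, 3493 and 3413, and 4675, 4519 and 5878. With all 6 libraries they numbered 4790. The part of the smaller number of libraries in the lost calls was not tested.

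Among nuclear protein-coding or unclassified genes with a symbol, the 12 largest falls with an adjusted p under 0.05 were genes of blood and marrow cells, and the 12 largest rises included genes of contractile cells and fibroblasts, a matrix protease and growth factor regulators. The falls were Defa5, Np4, Ctsg, Cd79a, Fcnb, Ppbp, Rnase2, Defa11, Mpo, Car1, Nkg7 and Fcrla, with log2 fold changes from −4.70 to −3.90. The rises were Acta2, Tagln, Errfi1, Mmp3, Tppp3, Sncg, Rgs1, Ccn5, RGD1564664, Igfbp3, Gadd45g and Cav1, with log2 fold changes from 4.22 to 3.12. In each of these 24 genes every SYD library lay on the same side of every control library, as the rule that picked them required. Mitochondrial genes, unnamed loci, immunoglobulin V genes and ribosomal RNA, some of which changed more, were outside this ranking.

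**Figure D2:**
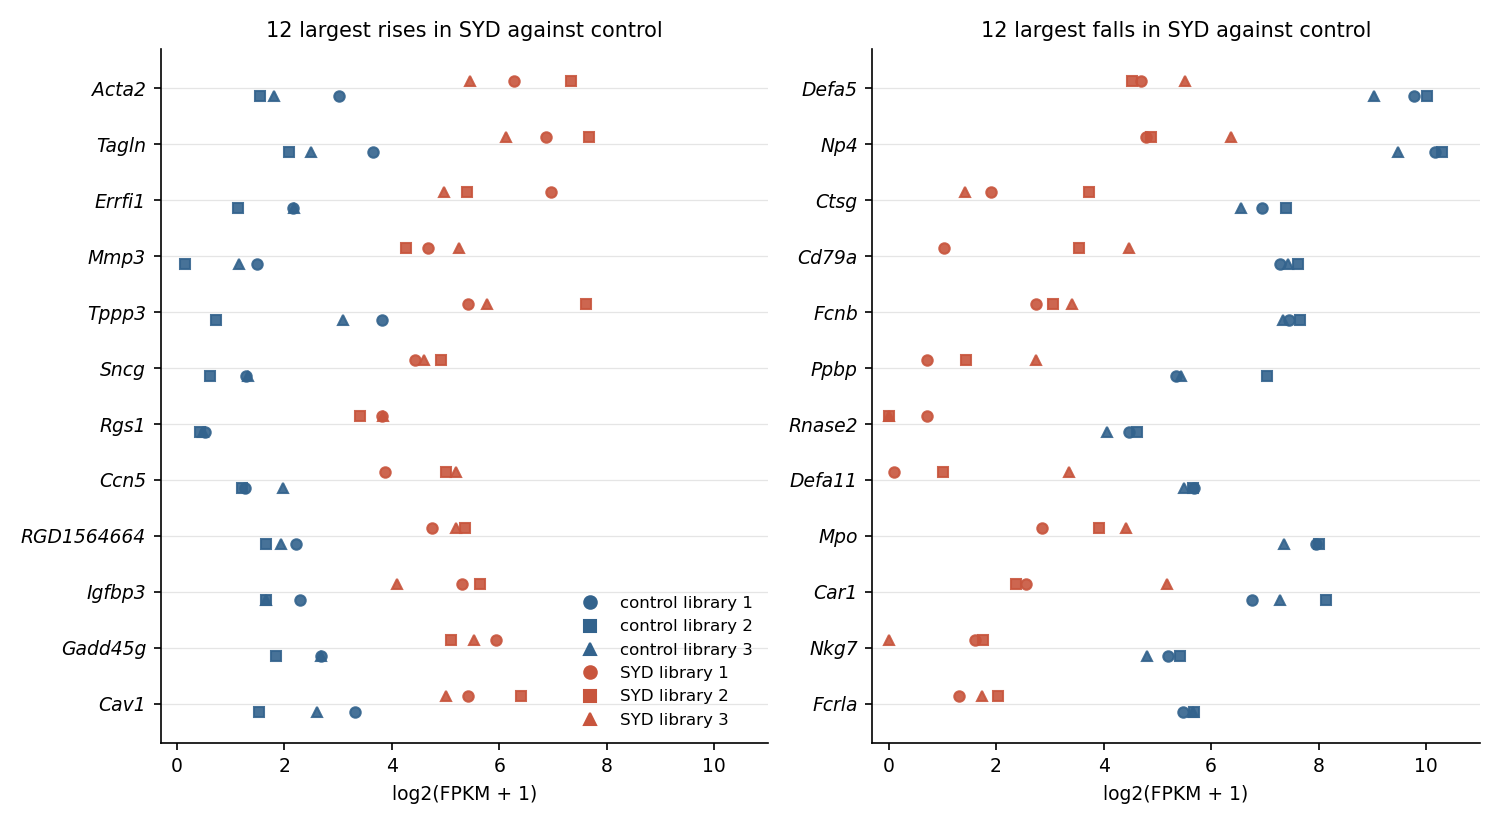
The 12 largest rises (left) and the 12 largest falls (right) among nuclear protein-coding or unclassified genes with a symbol, an adjusted p under 0.05 and no overlap between groups, as log2(FPKM + 1) in each control (blue) and SYD (red) library, each library with its own symbol. The SYD libraries sit above log2 values of 3 in each of the rises, and the control libraries sit above 4 in each of the falls.

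Most genes of the granulocyte list passed as lowered. Of the 19 tested members of the neutrophil and granulocyte precursor list, 12 were lowered and 0 raised, against 9.57% and 7.75% of all genes, and their median log2 fold change was −2.76. Mpo, which encodes the peroxidase of the primary granules (plus strand of chromosome 10, 72594661 to 72604819), had 248, 257 and 163 FPKM in control libraries and 6.24, 14.05 and 20.3 FPKM in SYD libraries, a change of −4.05 on the log2 scale (SE 0.43, adjusted p = 0.00807, limma). Ctsg, the granule protease cathepsin G (minus strand of chromosome 15, 29931003 to 29937353), had 123, 167 and 93.4 FPKM in control and 2.74, 12.2 and 1.68 FPKM in SYD (log2 fold change −4.62, SE 0.62, adjusted p = 0.0116, limma). In both genes the lowest control library was several times above the highest SYD library. Fcnb, the lectin ficolin B of marrow myeloid cells, went from 175, 199 and 161 FPKM to 5.67, 7.31 and 9.67 FPKM, with narrow spread in both groups (adjusted p = 0.00436, limma). Defa5 and Np4, neutrophil defensins, had log2 fold changes of −4.70 and −4.64, and Defa11 had −4.12. The 3 defensins are near copies of each other and their table entries overlap or lie near each other on chromosome 16, so reads may be shared between them. Rnase2, a ribonuclease of granulocytes in a family of close copies, had 21.1, 23.7 and 15.6 FPKM in control, 0.637 FPKM in SYD library 1 and was listed at 0 in the other SYD libraries.

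The most abundant members of the list, S100a8 and S100a9, did not pass the test. They encode the calcium-binding alarmin pair that fills the cytoplasm of mature neutrophils. S100a8 had 1239, 2312 and 1564 FPKM in control libraries and 271, 418 and 1761 FPKM in SYD libraries (log2 fold change −1.50, adjusted p = 0.224, limma). S100a9 had 859, 1935 and 1273 FPKM in control and 211, 319 and 1221 FPKM in SYD (adjusted p = 0.193, limma). For both genes SYD library 3 lay within the control range while SYD libraries 1 and 2 lay below it. Without SYD library 3, all 19 tested members of the list passed as lowered. Leaving out control library 1, 2 or 3 gave 10, 8 and 7 lowered members, and leaving out SYD library 1 or 2 gave 9 and 10.

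B lineage genes passed as lowered almost throughout their list. Of 21 tested members, 19 were lowered and 0 raised, with a median log2 fold change of −2.91. Cd79a, a signalling chain of the B cell receptor (plus strand of chromosome 1, 80493581 to 80497935), had 155, 197 and 172 FPKM in control libraries and 1.06, 10.7 and 21.1 FPKM in SYD libraries (log2 fold change −4.43, SE 0.86, adjusted p = 0.0247, limma). Fcrla, an Fc receptor-like protein inside B cells, had 43.4, 50.2 and 49.7 FPKM in control and 1.49, 3.10 and 2.36 FPKM in SYD (log2 fold change −3.90, SE 0.21, adjusted p = 0.00436, limma). The libraries of each group lay close together for Fcrla, whereas SYD libraries of Cd79a spanned a wide range below the controls. Igll1, part of the surrogate light chain of pre-B cells, had 17.6, 25.9 and 28.3 FPKM in control against 0.598, 2.35 and 0 FPKM in SYD (adjusted p = 0.00992, limma). Cd72, an inhibitory coreceptor, and Spib, a transcription factor of lymphoid cells, changed by −3.67 and −3.65 on the log2 scale (adjusted p = 0.00975 and 0.0456, limma). Jchain, the joining chain that plasma cells add to secreted antibodies, had 106, 187 and 122 FPKM in control and 25.2, 9.31 and 27.9 FPKM in SYD (log2 fold change −2.77, adjusted p = 0.017, limma). The 2 members that did not pass were Pax5 (−1.84, adjusted p = 0.0948, limma) and Vpreb1 (−1.51, adjusted p = 0.285, limma), named after their values were seen. With control library 1, 2 or 3 left out, 12, 12 and 8 members were lowered, and with SYD library 1, 2 or 3 left out, 17, 16 and 20.

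Part of the red cell precursor genes passed as lowered, and globin transcripts overlapped between the groups. Of 23 tested members of the erythroid list, 11 were lowered and 0 raised, and all 23 had a log2 fold change below 0, with a median of −2.96. Car1, a carbonic anhydrase of red cells, had 108, 280 and 154 FPKM in control libraries and 4.91, 4.18 and 35.1 FPKM in SYD libraries (log2 fold change −4.02, SE 0.82, adjusted p = 0.0281, limma). Rhag, a membrane channel of red cells, had 26.8, 65.8 and 38.4 FPKM in control and 0.335, 1.45 and 10.4 FPKM in SYD (log2 fold change −3.65, adjusted p = 0.0362, limma). Klf1, the master transcription factor of erythropoiesis, had 43.3, 108 and 56.3 FPKM in control and 3.27, 1.13 and 20.7 FPKM in SYD (log2 fold change −3.48, adjusted p = 0.0475, limma). Control library 2 was the highest and SYD library 3 the highest of its group in each of these genes. The most abundant members were Hba-a1 and Hbb, the globin chains, for which near copies make the split of reads uncertain. Hba-a1 had 5096, 12594 and 6065 FPKM in control and 1075, 1600 and 11304 FPKM in SYD (log2 fold change −1.44, adjusted p = 0.423, limma). Hbb had 705, 1725 and 839 FPKM in control and 165, 185 and 1576 FPKM in SYD (log2 fold change −1.47, adjusted p = 0.327, limma). SYD library 3 reached the control range for both globins, and SYD libraries 1 and 2 lay below it. The count of lowered members was 2, 1 and 0 without control library 1, 2 or 3, 2 and 2 without SYD library 1 or 2, and 22 without SYD library 3. It was 6 without a filter on low values, 19 after quantile normalization and 23 after rescaling to TPM. Among the 21 members with a mean of at least 10 FPKM, 16 were lowered (limma).

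**Figure D3:**
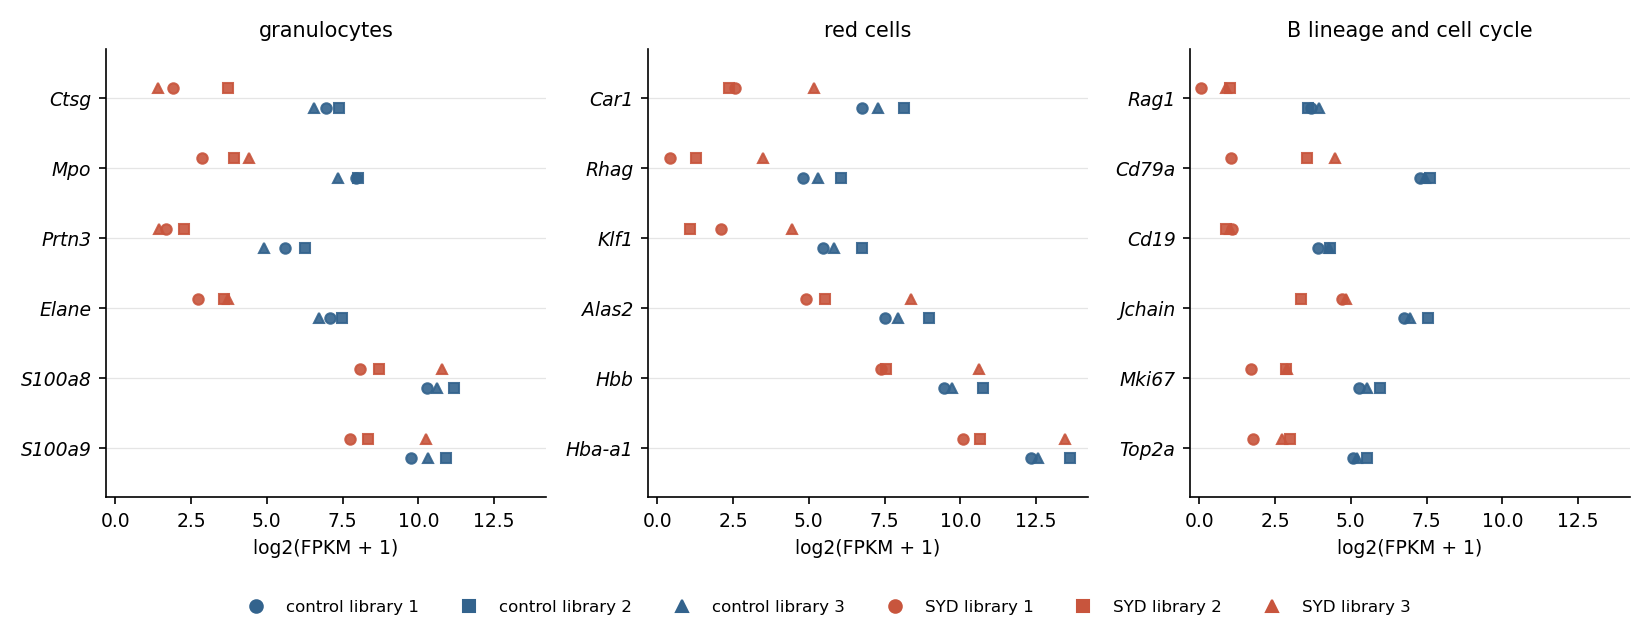
Granulocyte, red cell, and B lineage and cell cycle genes as log2(FPKM + 1) in each control (blue) and SYD (red) library. Ctsg, Mpo, Prtn3, Elane, Car1, Rhag and Klf1 are lower in every SYD library, whereas for S100a8, Alas2, Hbb and Hba-a1 SYD library 3 lies within the control range.

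Platelet and killer cell genes also stood among the largest falls. Ppbp, a chemokine of platelet granules, had 39.8, 130 and 42.4 FPKM in control libraries and 0.642, 1.70 and 5.67 FPKM in SYD libraries (log2 fold change −4.31, SE 0.67, adjusted p = 0.0157, limma), and 5 of 16 tested megakaryocyte and mast cell genes were lowered. Pf4, the other abundant chemokine of platelet granules, overlapped between the groups (45.9 to 153 FPKM in control, 13.0 to 74.6 FPKM in SYD). Nkg7, a granule membrane protein of cytotoxic cells, had 35.6, 41.7 and 27.1 FPKM in control and 2.04, 2.37 and 0 FPKM in SYD (log2 fold change −4.02, adjusted p = 0.0101, limma). Of 9 tested T and NK cell genes, 1 was raised and 2 were lowered. The defining T cell gene Cd3e was under 1 FPKM in all 6 libraries. Without control library 1, 2 or 3 the lowered members of the megakaryocyte and mast cell list numbered 3, 2 and 0, and without SYD library 1, 2 or 3 they numbered 2, 3 and 10.

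Genes of cell division fell together. Of the 39 tested members of the cell cycle and replication list, 36 were lowered, 0 were raised, and in all 39 the 3 SYD libraries lay below the 3 control libraries, where 22.2% of all genes had such an order. Their median log2 fold change was −2.26. Mki67, the proliferation marker Ki-67, had 37.4, 61.7 and 44.8 FPKM in control libraries and 2.29, 6.25 and 6.40 FPKM in SYD libraries (log2 fold change −3.10, SE 0.37, adjusted p = 0.00992, limma). Ccnb2, a mitotic cyclin, had 19.5, 36.8 and 23.0 FPKM in control and 0, 3.74 and 1.68 FPKM in SYD (log2 fold change −3.50, SE 0.60, adjusted p = 0.0183, limma). Ube2c, which tags mitotic cyclins for destruction, changed by −3.07, and Rrm2, the small subunit of ribonucleotide reductase, by −2.93 on the log2 scale. Pcna, the sliding clamp of DNA polymerase and the most abundant member, had 63.4, 112 and 76.7 FPKM in control and 13.4, 21.7 and 35.3 FPKM in SYD (log2 fold change −1.86, adjusted p = 0.0298, limma). Control library 2 was highest in all of these genes. The members that did not pass were Ccne2, Cdk1 and Kif23, with adjusted p of 0.0519, 0.0538 and 0.066 (limma), named after their values were seen. Leaving out control library 1, 2 or 3 left 18, 14 and 3 lowered members, and leaving out SYD library 1, 2 or 3 left 28, 29 and 37.

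Promoters of cell cycle genes often carry CCAAT boxes, the site of the factor NF-Y, and such boxes were searched because these genes moved together. RefSeq gave a promoter for 31 of the 40 listed genes (GRCr8, the 250 bases before the start, which is another build than that of the deposited positions). The letters CCAAT stood on either strand in 24 of the 31 promoters (77.4%) and in 34.3% of all 27457 promoters. The motif was chosen after the values were seen, and a match describes the letters and not a bound site. The 3 promoters below show how the boxes are placed in genes of the list, with CCAAT or its reverse complement ATTGG in capitals, and were picked for having 2 or 3 matches. Ccnb2 lies on the minus strand (chr8:79981659-79981908, 3 matches), Cdc20 on the minus strand (chr5:137255800-137256049, 2 matches) and Cdk1 on the plus strand (chr20:19265043-19265292, 3 matches).
Ccnb2: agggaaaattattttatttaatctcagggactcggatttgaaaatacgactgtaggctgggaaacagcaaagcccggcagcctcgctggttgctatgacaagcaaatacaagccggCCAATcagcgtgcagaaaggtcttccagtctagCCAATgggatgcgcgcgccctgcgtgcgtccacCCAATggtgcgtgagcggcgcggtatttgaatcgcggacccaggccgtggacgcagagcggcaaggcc
Cdc20: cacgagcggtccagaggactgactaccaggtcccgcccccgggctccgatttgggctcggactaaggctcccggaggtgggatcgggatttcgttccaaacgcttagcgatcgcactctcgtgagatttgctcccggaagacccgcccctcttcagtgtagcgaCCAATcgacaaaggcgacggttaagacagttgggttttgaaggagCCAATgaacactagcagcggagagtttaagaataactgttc
Cdk1: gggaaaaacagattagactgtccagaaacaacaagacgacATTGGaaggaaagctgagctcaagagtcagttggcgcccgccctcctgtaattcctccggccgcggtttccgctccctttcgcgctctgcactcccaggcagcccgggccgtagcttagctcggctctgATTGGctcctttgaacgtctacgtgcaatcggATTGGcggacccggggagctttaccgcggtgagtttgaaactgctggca
Cdc20, an activator of the anaphase-promoting complex, had 27.6, 41.7 and 25.6 FPKM in control libraries and 2.75, 6.02 and 6.66 FPKM in SYD libraries (log2 fold change −2.44, SE 0.34, adjusted p = 0.0123, limma). Cdk1, the kinase that drives entry into mitosis, had 27.5, 48.7 and 32.3 FPKM in control and 1.56, 13.6 and 6.98 FPKM in SYD (log2 fold change −2.44, SE 0.65, adjusted p = 0.0538, limma). Both genes had every SYD library below every control library.

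Acta2 and Tagln, both contractile genes, led the ranked rises. Acta2, smooth muscle actin, which is also made by myofibroblasts (minus strand of chromosome 1, 231746548 to 231759554), had 7.13, 1.93 and 2.52 FPKM in control libraries and 76.4, 160 and 42.6 FPKM in SYD libraries, a change of 4.22 on the log2 scale (SE 0.59, adjusted p = 0.0126, limma). Tagln, an actin-binding protein of the same cells, had 11.5, 3.26 and 4.61 FPKM in control and 116, 203 and 69.0 FPKM in SYD (log2 fold change 4.15, SE 0.54, adjusted p = 0.0107, limma). For both genes the lowest SYD library was several times above the highest control library. Myh11, smooth muscle myosin, had 1.72, 0.515 and 0.889 FPKM in control and 14.8, 26.0 and 6.62 FPKM in SYD (log2 fold change 2.90, SE 0.50, adjusted p = 0.0188, limma). Of 13 tested members of the smooth muscle and pericyte list, 6 were raised and 0 lowered, with a median log2 fold change of 1.93, and all 13 had a log2 fold change above 0. Mcam, an adhesion molecule of pericytes, and Lmod1, an actin nucleator, changed by 2.19 and 1.93. Rgs5, a pericyte marker and the second most abundant member, did not pass (log2 fold change 1.99, adjusted p = 0.113, limma). SYD library 3 was the lowest of its group for Acta2, Tagln and Myh11. The count of raised members was 2, 1 and 0 without control library 1, 2 or 3 and 3, 5 and 10 without SYD library 1, 2 or 3.

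Skeletal muscle genes varied within both groups. Acta1, skeletal muscle actin, had 157, 31.0 and 3.81 FPKM in control libraries and 4.87, 382 and 104 FPKM in SYD libraries (adjusted p = 0.714, limma), and the 36 muscle genes found in the table summed to 60.2 to 505 FPKM in control and 107 to 1792 FPKM in SYD. Of 34 tested members, 1 was raised, Tpm2, a tropomyosin that smooth muscle also makes. All 34 had a log2 fold change above 0, with a median of 1.18. Without SYD library 1, which was low in muscle genes, 6 were raised and the median was 2.10, and without SYD library 2 the median was 0.67 and 0 were raised.

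Other leading rises encode signalling and cell shape regulators. Errfi1, a feedback inhibitor of the EGF receptor, had 3.49, 1.20 and 3.51 FPKM in control and 124, 41.1 and 30.4 FPKM in SYD (log2 fold change 3.96, SE 0.59, adjusted p = 0.014, limma). Cav1, the coat protein of caveolae in endothelial, smooth muscle and fat cells, had 8.99, 1.90 and 5.14 FPKM in control and 41.7, 83.4 and 31.3 FPKM in SYD (log2 fold change 3.12, adjusted p = 0.0202, limma). Rgs1, a regulator of G protein signalling, had 0.444, 0.342 and 0.395 FPKM in control and 13.2, 9.68 and 13.4 FPKM in SYD (log2 fold change 3.22, SE 0.19, adjusted p = 0.00436, limma). The Rgs1 values were the tightest of these within both groups. Gadd45g, a growth arrest gene, Sncg, a synuclein, and RGD1564664, a gene known only by its locus name, rose by 3.12, 3.57 and 3.17. Tppp3, a tubulin-binding protein of tendon and synovial lining cells, had 13.1, 0.658 and 7.55 FPKM in control and 42.0, 195 and 53.9 FPKM in SYD, and passed with an adjusted p of 0.049 (limma).

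Part of the fibrous matrix and protease genes passed as raised. In the bone and fibrous matrix list, 6 of 37 tested members were raised and 0 lowered, with a median log2 fold change of 1.39. Lum, the small proteoglycan lumican that spaces collagen fibrils, had 32.5, 19.1 and 31.1 FPKM in control libraries and 182, 217 and 73.6 FPKM in SYD libraries (log2 fold change 2.37, SE 0.45, adjusted p = 0.0243, limma). Ogn, osteoglycin of the same family, had 15.0, 6.25 and 14.7 FPKM in control and 74.9, 45.6 and 51.3 FPKM in SYD (log2 fold change 2.22, adjusted p = 0.0176, limma). Neither gene overlapped between the groups. Tnn, tenascin N of the periosteum, Col18a1, a collagen of basement membranes, and Mfap5, a microfibril protein, rose by 3.08, 2.61 and 2.03. The most abundant members, Col1a1 and Col1a2, the chains of type I collagen of bone and fibrous tissue, overlapped between the groups. Col1a1 had 4426, 1962 and 3225 FPKM in control and 6597, 5957 and 3991 FPKM in SYD (log2 fold change 0.83, adjusted p = 0.471, limma), and its sign turned with the scaling, to −1.66 after quantile normalization and −0.72 after rescaling to TPM. Col1a2 turned likewise, to −0.72 and −0.71. Raised members numbered 2, 2 and 0 without control library 1, 2 or 3 and 3, 1 and 7 without SYD library 1, 2 or 3. Among 26 tested enzymes that process collagen, Bmp1, Pcolce and Loxl1 were raised and 0 were lowered. The raised count was 1, 0 and 0 without control library 1, 2 or 3, 0, 0 and 2 without SYD library 1, 2 or 3, and 0 after rescaling to TPM, where Pcolce was at −0.020 (limma).

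Mmp3, stromelysin-1, a protease that cuts aggrecan and activates collagenases (plus strand of chromosome 8, 4640416 to 4653961), had 1.81, 0.119 and 1.22 FPKM in control libraries and 24.7, 18.1 and 37.3 FPKM in SYD libraries (log2 fold change 3.80, SE 0.42, adjusted p = 0.0087, limma). Mmp13, the collagenase best known for cutting type II collagen, had 87.6, 54.4 and 106 FPKM in control and 737, 283 and 245 FPKM in SYD (log2 fold change 2.21, SE 0.49, adjusted p = 0.0348, limma). Neither protease overlapped between the groups, and SYD library 1 was far above the others for Mmp13. Of 32 tested matrix proteases and inhibitors, 9 were raised and 0 lowered, with a median log2 fold change of 1.22. Timp1, an inhibitor of metalloproteinases, had 30.6, 11.1 and 23.9 FPKM in control and 113, 128 and 54.9 FPKM in SYD (log2 fold change 2.14, adjusted p = 0.0341, limma). Adamts1 and Adamts10, proteases with thrombospondin repeats, rose by 2.11 and 2.04. Adamts4 and Adamts5, the aggrecanases held to matter most in osteoarthritis and named after their values were seen, did not pass (log2 fold changes 1.44 and 0.06, adjusted p = 0.143 and 0.884, limma). Mmp9, gelatinase B of osteoclasts and neutrophils, was above Mmp13 in the control group and overlapped between the groups, with 308, 164 and 263 FPKM in control and 409, 269 and 202 FPKM in SYD (adjusted p = 0.662, limma). Leaving out control library 1, 2 or 3 gave 2, 2 and 1 raised members, and leaving out SYD library 1, 2 or 3 gave 7, 7 and 16.

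Among osteoclast genes the raised share was above that of all genes on FPKM as deposited. Of 17 tested osteoclast genes, 6 were raised and 1 was lowered, with a median log2 fold change of 0.84. Ctsk, cathepsin K, the protease with which osteoclasts digest bone collagen, had 346, 251 and 430 FPKM in control libraries and 1507, 1067 and 1186 FPKM in SYD libraries (log2 fold change 1.89, SE 0.32, adjusted p = 0.0185, limma). Acp5, the tartrate-resistant acid phosphatase, had 350, 186 and 346 FPKM in control and 691, 624 and 769 FPKM in SYD (log2 fold change 1.29, SE 0.32, adjusted p = 0.0465, limma). Dcstamp, required for osteoclast fusion, and Atp6v0d2, a proton pump subunit, rose by 1.69 and 1.33, and Siglec15, a receptor of osteoclast precursors, by 0.88. Itgb3, the integrin chain of both osteoclasts and platelets, went the other way, with 31.9, 37.3 and 34.6 FPKM in control and 19.2, 17.1 and 9.63 FPKM in SYD (log2 fold change −1.18, adjusted p = 0.035, limma). The raised count was 0 without any 1 of the control libraries and 2, 3 and 9 without SYD library 1, 2 or 3, and without SYD library 1 the median was 0.53. After rescaling to TPM 0 members were raised and 2 lowered in limma, with Acp5 at −0.26, Atp6v0d2 at −0.15 and Siglec15 at −0.48, and the median was 0.84 above that of all genes. In the fit of all 9 libraries 0 were raised and 0 lowered, and without a filter 2, with nuclear rescaling 3 and among genes with a mean of at least 10 FPKM 3 were raised.

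Spp1, osteopontin, a phosphoprotein of bone and of activated macrophages, had 489, 238 and 471 FPKM in control libraries and 2098, 1735 and 2896 FPKM in SYD libraries (log2 fold change 2.53, SE 0.43, adjusted p = 0.0186, limma). Runx2, the transcription factor of osteoblasts and hypertrophic chondrocytes, had 6.48, 3.25 and 5.60 FPKM in control and 18.0, 13.1 and 13.8 FPKM in SYD (log2 fold change 1.41, adjusted p = 0.0212, limma). These were the 2 raised genes among 21 tested osteoblast and osteocyte genes, a share near the 7.75% of all genes, and 0 were lowered. Without control library 3, 0 of them were raised in limma, and voom on the recovered reads raised 5. Bglap, osteocalcin, the most abundant of them, had 935, 818 and 1067 FPKM in control and 1907, 2039 and 3445 FPKM in SYD. Its libraries did not overlap, yet it did not pass the test (log2 fold change 1.34, adjusted p = 0.0881, limma). Its sign turned with the scaling, to −0.20 after rescaling to TPM and −0.12 after quantile normalization. After rescaling to TPM the list had 0 raised and 2 lowered members (limma).

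**Figure D4:**
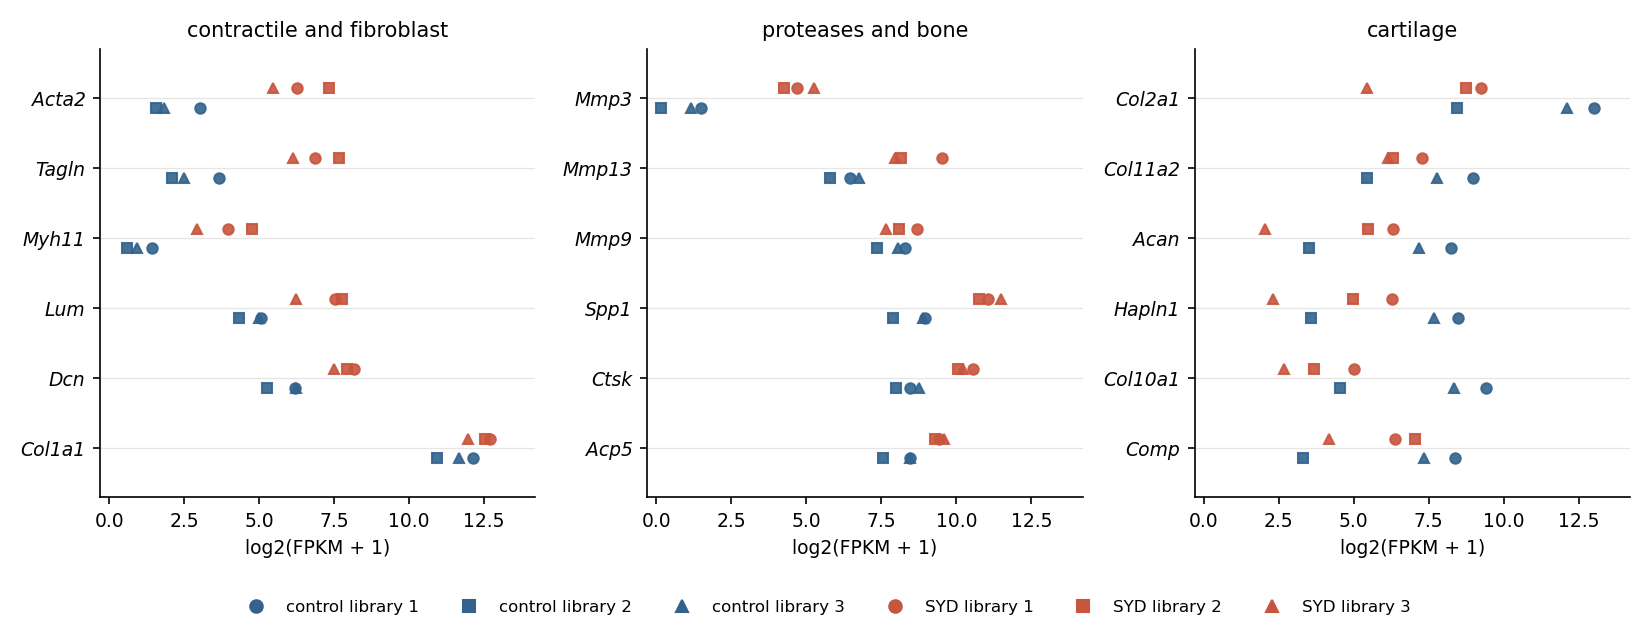
Contractile and fibroblast, protease and bone, and cartilage genes as log2(FPKM + 1) in each control (blue) and SYD (red) library. Acta2, Tagln, Myh11, Lum, Dcn, Mmp3, Mmp13, Spp1, Ctsk and Acp5 are higher in every SYD library, whereas for Col2a1, Acan and Hapln1 control library 2 lies among the SYD libraries.

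On FPKM as deposited none of the cartilage matrix genes passed the test, and the spread between control libraries was wider than the difference between the groups. Of 23 tested members, 0 were raised and 0 lowered at an adjusted p under 0.05 in limma, 2 had an unadjusted p under 0.05, voom on the recovered reads called 0 of them, 19 had a log2 fold change below 0, and the median was −1.71. Col2a1, the chain of type II collagen (minus strand of chromosome 7, 129098786 to 129127546), had 8323, 348 and 4468 FPKM in control libraries and 609, 430 and 42.4 FPKM in SYD libraries (log2 fold change −3.38, SE 1.54, adjusted p = 0.181, limma). Acan, the core protein of aggrecan, had 305, 10.4 and 143 FPKM in control and 77.8, 43.2 and 3.12 FPKM in SYD (log2 fold change −1.71, SE 1.60, adjusted p = 0.487, limma). Control library 2 lay among the SYD libraries for both genes, and control libraries 1 and 3 lay above all of them. The largest difference of the list was in Col10a1, the collagen of hypertrophic chondrocytes, named after its values were seen, with 674, 22.2 and 327 FPKM in control and 30.9, 11.96 and 5.38 FPKM in SYD (log2 fold change −3.64, adjusted p = 0.118, limma). The median SD of log2(FPKM + 1) between the libraries of a group was 2.18 in control and 1.49 in SYD over the cartilage list, against 0.172 and 0.373 over all tested genes. The median was −0.70, −3.04 and −1.28 without control library 1, 2 or 3 and −2.55, −1.84 and −0.73 without SYD library 1, 2 or 3. Without control library 2, 2 cartilage genes passed as lowered, and with any other 1 library left out 0 did. Lowered members numbered 2 after rescaling to TPM, 1 with a pseudocount of 0.1 and 3 without control library 2 and SYD library 3 together. Among 16 tested chondrocyte regulators, Runx2 was raised and Sox6, a partner of Sox9 in cartilage that erythroid precursors also express, was lowered. The lowered count was 0 without any 1 of the control libraries, the raised count was 0 without control library 3, without SYD library 1 and after rescaling to TPM, and both were 0 in the fit of all 9 libraries (limma). Sox6 had 3.28, 4.84 and 3.58 FPKM in control and 1.07, 0.337 and 1.02 FPKM in SYD (log2 fold change −1.45, adjusted p = 0.0184, limma). Sox9 itself, named after its values were seen, overlapped between the groups (log2 fold change −0.58, adjusted p = 0.657, limma).

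Part of the endothelial genes and of the signals for vessel growth passed as raised. Of 25 tested endothelial genes, 12 were raised and 1 was lowered, against 7.75% and 9.57% of all genes, with a median log2 fold change of 0.99. Sox17, a transcription factor of arterial endothelium, had 1.90, 0.806 and 1.14 FPKM in control libraries and 10.9, 8.36 and 11.7 FPKM in SYD libraries (log2 fold change 2.33, SE 0.24, adjusted p = 0.00802, limma). Pecam1, the junction protein CD31, had 10.7, 7.13 and 7.98 FPKM in control and 28.2, 40.3 and 31.1 FPKM in SYD (log2 fold change 1.83, SE 0.21, adjusted p = 0.0087, limma). Emcn, a sialomucin of capillaries in bone, had 6.64, 5.15 and 6.09 FPKM in control and 21.2, 26.5 and 23.5 FPKM in SYD (log2 fold change 1.83, SE 0.15, adjusted p = 0.00611, limma). All 3 genes had tight values in both groups and no overlap. Egfl7, secreted by endothelium, and Nos3, the endothelial nitric oxide synthase, rose by 2.13 and 1.99, and Mmrn1, a multimerin of platelets and endothelium, was the lowered member (−1.56). Aqp1, a water channel that red cells share and the most abundant member, overlapped (107, 191 and 128 FPKM in control, 98.9, 136 and 105 FPKM in SYD). The raised count was 11, 9 and 4 without control library 1, 2 or 3 and 11, 10 and 13 without SYD library 1, 2 or 3. It was 0, with 1 lowered, after rescaling to TPM, where the list's median was 1.18 above that of all genes, and 1, with 0 lowered, in the fit of all 9 libraries (limma).

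Vegfa, the main growth factor of vessels, had 8.66, 2.84 and 6.32 FPKM in control and 43.3, 14.5 and 24.1 FPKM in SYD (log2 fold change 1.996, SE 0.50, adjusted p = 0.046, limma). Of 22 tested angiogenic ligands and hypoxia genes, 8 were raised and 0 lowered, with a median log2 fold change of 0.90. Ddit4, a stress-induced inhibitor of mTOR signalling, had 10.2, 5.70 and 15.9 FPKM in control and 105, 55.0 and 39.4 FPKM in SYD (log2 fold change 2.52, adjusted p = 0.0234, limma), and Pgf, placental growth factor, changed by 1.78. The control ranges lay wholly below the SYD ranges in these 3 genes. Without any 1 of the control libraries the raised count was 0, and without SYD library 1, 2 or 3 it was 4, 5 and 6.

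Immediate-early genes, which cells switch on within minutes of a stimulus, passed as raised in part. Of 26 tested members of the AP-1 and EGR list, 10 were raised and 2 lowered, with a median log2 fold change of 0.87. Fos, a subunit of AP-1, had 3.61, 0.923 and 1.69 FPKM in control libraries and 25.5, 10.6 and 23.8 FPKM in SYD libraries (log2 fold change 2.77, SE 0.45, adjusted p = 0.017, limma). Nr4a1, an orphan nuclear receptor, had 1.86, 2.05 and 2.51 FPKM in control and 14.16, 10.6 and 15.8 FPKM in SYD (log2 fold change 2.20, SE 0.19, adjusted p = 0.0067, limma). Egr1, a zinc finger factor, had 7.34, 4.44 and 5.42 FPKM in control and 28.8, 17.3 and 34.2 FPKM in SYD (log2 fold change 2.01, adjusted p = 0.0139, limma). None of these overlapped between the groups. Jun, the partner of Fos, and Atf3, a stress-induced factor, changed by 1.93 and 2.19. Btg2, an antiproliferative gene that lymphocytes express highly, had 36.7, 62.7 and 44.7 FPKM in control and 27.5, 14.3 and 17.5 FPKM in SYD (log2 fold change −1.25, adjusted p = 0.0424, limma), and the phosphatase gene Dusp2 was the other lowered member. The raised count was 5, 4 and 1 without control library 1, 2 or 3 and 8, 8 and 13 without SYD library 1, 2 or 3.

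The CArG box, the site of serum response factor, was also searched in the promoters of these genes after their values were seen. Of the 26 tested members, 10 were raised, 2 lowered and 14 not called. The CArG box stood in 4 of the 21 promoters that RefSeq gave for the 30 listed genes (19.0%), those of Egr1, Egr2, Klf6 and Zfp36, and in 412 of all 27457 promoters. Of these 4 genes, Egr2 did not pass in limma with any 1 library left out (log2 fold change 0.19 to 0.41). It was at −0.44 after rescaling to TPM. In the 9 promoters found for the smooth muscle list there were 0 matches in this window. Klf6 (chr17:69458479-69458728, minus strand of GRCr8) and Zfp36 (chr1:92799109-92799358, minus strand) are shown as raised members with 1 match each, in capitals.
Klf6: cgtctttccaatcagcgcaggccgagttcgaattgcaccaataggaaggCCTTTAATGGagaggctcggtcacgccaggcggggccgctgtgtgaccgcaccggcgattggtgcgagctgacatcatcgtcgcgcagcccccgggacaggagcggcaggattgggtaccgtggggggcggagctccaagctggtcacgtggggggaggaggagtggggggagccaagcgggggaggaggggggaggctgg
Zfp36: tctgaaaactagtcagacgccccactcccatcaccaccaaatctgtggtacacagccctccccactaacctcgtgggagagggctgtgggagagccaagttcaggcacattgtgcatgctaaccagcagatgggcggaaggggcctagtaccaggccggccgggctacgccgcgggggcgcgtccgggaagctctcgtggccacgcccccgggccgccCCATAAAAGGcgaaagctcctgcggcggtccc
Klf6, a zinc finger factor induced by injury, had 4.64, 4.84 and 4.47 FPKM in control libraries and 14.3, 13.97 and 10.9 FPKM in SYD libraries (log2 fold change 1.31, SE 0.15, adjusted p = 0.00917, limma). Zfp36, tristetraprolin, which speeds the decay of cytokine messages, had 8.87, 11.4 and 11.2 FPKM in control and 49.96, 24.6 and 37.7 FPKM in SYD (log2 fold change 1.69, SE 0.27, adjusted p = 0.0167, limma). Klf6 was at −0.048 after rescaling to TPM. Both genes were named after their values were seen.

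Growth factor genes of the TGF-beta, BMP and CCN families had 7 raised and 0 lowered members among 29 tested, with a median log2 fold change of 0.96. Ccn5, a secreted regulator of smooth muscle growth, had 1.40, 1.31 and 2.92 FPKM in control libraries and 13.6, 31.2 and 35.7 FPKM in SYD libraries (log2 fold change 3.21, SE 0.41, adjusted p = 0.0105, limma). Fst, follistatin, which binds activins, had 0.709, 0.750 and 1.07 FPKM in control and 13.1, 17.4 and 9.47 FPKM in SYD (log2 fold change 2.92, SE 0.25, adjusted p = 0.00636, limma). Inhbb, an activin subunit, and the ligand Tgfb2 changed by 1.78 and 1.93. Tgfb1, the most widely made ligand, did not pass (log2 fold change 0.09, adjusted p = 0.736, limma). In the IGF axis, 3 of 13 tested genes were raised and 0 lowered. The raised count was 1, 0 and 0 without control library 1, 2 or 3, 1, 1 and 4 without SYD library 1, 2 or 3, and 0 after rescaling to TPM and in the fit of all 9 libraries (limma). Igfbp3, a binding protein that carries IGFs, had 3.89, 2.17 and 2.17 FPKM in control and 38.7, 49.2 and 16.2 FPKM in SYD (log2 fold change 3.15, SE 0.44, adjusted p = 0.0125, limma), and Igfbp7, a related protein of vessels, rose by 1.99. The groups were apart in all of the raised genes of this paragraph. Of the TGF-beta, BMP and CCN genes, 4, 4 and 2 were raised without control library 1, 2 or 3 and 5, 4 and 7 without SYD library 1, 2 or 3.

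Inflammatory genes rose in part. Of 39 tested cytokines, chemokines and enzymes, 9 were raised and 0 lowered, with a median log2 fold change of 0.59. Nfkbia, the inhibitor of NF-kappaB that NF-kappaB itself induces, had 9.65, 10.96 and 12.8 FPKM in control libraries and 92.5, 39.7 and 43.2 FPKM in SYD libraries (log2 fold change 2.19, SE 0.34, adjusted p = 0.0157, limma). Ccl2, a chemokine for monocytes, had 0.510, 0.277 and 0.226 FPKM in control and 2.45, 8.22 and 2.88 FPKM in SYD (log2 fold change 1.90, adjusted p = 0.0302, limma). Osmr, the oncostatin M receptor, had 1.48, 0.762 and 1.59 FPKM in control and 6.95, 7.10 and 7.93 FPKM in SYD (log2 fold change 1.89, adjusted p = 0.00814, limma). These genes were higher in each SYD library than in each control library. Cxcl16, a chemokine of macrophages and endothelium, and Tnfaip6, a hyaluronan-binding protein induced by TNF, changed by 1.91 and 1.61. The cytokine gene Il1b had 0.624, 1.09 and 1.02 FPKM in control and 1.87, 0.961 and 2.51 FPKM in SYD and did not pass (adjusted p = 0.221, limma). Tnf stayed below the filter, with at most 0.210 FPKM in control and 0.737, 0 and 0 FPKM in SYD. Raised members numbered 2, 2 and 1 without control library 1, 2 or 3 and 7, 5 and 14 without SYD library 1, 2 or 3. Without SYD library 3 the median was 0.33 and 2 members were lowered, and without SYD library 1 also 2. After rescaling to TPM 0 were raised and 3 lowered (limma), and among members with a mean of at least 10 FPKM the median was −0.21.

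Calls among complement, macrophage and antigen presentation genes went in both directions or were absent. C3, the central complement protein, had 24.5, 21.2 and 18.3 FPKM in control and 1.16, 0.968 and 7.18 FPKM in SYD (log2 fold change −2.76, SE 0.57, adjusted p = 0.0284, limma), while Serping1, the inhibitor of C1, rose by 1.38 and was at −0.14 after rescaling to TPM. Complement genes counted 3 raised and 2 lowered among 20, with 0 raised and 0 lowered without control library 1 or 3 (limma). Of 21 tested macrophage genes, 2 were raised and 2 lowered, shares near those of all genes. Without control library 1, 2 or 3, 1, 0 and 0 of the macrophage genes were raised and 1, 1 and 0 lowered. Without SYD library 3, 4 were raised and 2 lowered, and after rescaling to TPM 0 were raised and 3 lowered (limma). Lyz2, a lysozyme that neutrophils also make and the most abundant of them, had 942, 1553 and 1043 FPKM in control and 365, 323 and 184 FPKM in SYD (log2 fold change −2.04, adjusted p = 0.0223, limma). Itgam, the integrin chain CD11b of granulocytes and macrophages, changed by −1.74, and Clec10a and Cd14, receptors of macrophages, by 1.54 and 1.37. Antigen presentation genes of MHC class II had 0 calls among 9 in limma and in voom, with 1 unadjusted p under 0.05, and 3 of 19 interferon response genes were raised (Ifitm3, Ifi27 and Ifi44) and 0 lowered. Ifi27, an interferon-induced mitochondrial membrane protein, had 35.3, 34.4 and 38.1 FPKM in control and 104, 100.5 and 127 FPKM in SYD (log2 fold change 1.59, SE 0.14, adjusted p = 0.00682, limma). The interferon list had 0 raised and 7 lowered after rescaling to TPM, where Ifi44 was at −0.11, 3 raised and 3 lowered without SYD library 3, and 1 raised without control library 3. Its median was −0.26, below that of all genes although its calls were rises.

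Genes of the unfolded protein response stood near the background, with 3 raised and 2 lowered among 47 tested and a median log2 fold change of 0.02, which was −0.11 relative to all genes after rescaling to TPM. Xbp1, the transcription factor spliced by IRE1, had 45.3, 29.1 and 34.9 FPKM in control libraries and 35.6, 44.0 and 28.4 FPKM in SYD libraries (log2 fold change −0.02, SE 0.23, adjusted p = 0.974, limma). Atf6, a sensor in the ER membrane, was lower in each SYD library (4.47, 2.89 and 2.07 against 5.40, 4.61 and 5.64 FPKM) without passing the test (log2 fold change −0.62, SE 0.25, adjusted p = 0.141, limma). Its relative Atf6b had 19.8, 20.5 and 18.0 FPKM in control and 12.1, 11.6 and 14.04 FPKM in SYD (log2 fold change −0.59, SE 0.13, adjusted p = 0.0328, limma). Syvn1, a ubiquitin ligase that clears misfolded proteins from the ER, had 21.5, 28.1 and 23.4 FPKM in control and 10.8, 11.6 and 11.8 FPKM in SYD (log2 fold change −1.02, SE 0.14, adjusted p = 0.0118, limma). Erlec1 and Selenos, which also act in ER clearance, rose by 1.23 and 1.06 together with Atf3, and were at −0.23 and −0.43 after rescaling to TPM. Erlec1 did not pass without control library 1, 2 or 3 or SYD library 1. Calr and P4hb, the abundant folding proteins of the list, changed by 0.00 and 0.27 and did not pass. Without control library 3, 0 members were raised and 0 lowered in limma.

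Mechanically gated channels and calcium entry genes had 2 raised and 3 lowered members among 33, with a median log2 fold change of 0.15. Piezo1, a mechanically gated cation channel, had 12.6, 11.1 and 11.1 FPKM in control libraries and 10.5, 10.99 and 8.77 FPKM in SYD libraries. The SYD values lay just below the control values, by −0.19 on the log2 scale (SE 0.14, adjusted p = 0.374, limma). Atp2a3, a calcium pump of blood cells, had 12.1, 15.0 and 13.95 FPKM in control and 2.86, 3.22 and 5.47 FPKM in SYD (log2 fold change −1.63, SE 0.23, adjusted p = 0.0133, limma). Stim1, the calcium sensor of the ER, had 10.4, 10.6 and 10.9 FPKM in control and 4.93, 4.69 and 2.90 FPKM in SYD (log2 fold change −1.20, SE 0.20, adjusted p = 0.0174, limma), and Orai2, a channel that such sensors open, changed by −0.77. Kcnk2, a stretch-sensitive potassium channel, and Cacna1c, the pore of the L-type calcium channel of smooth muscle, changed by 0.95 and 0.79, and Kcnk2 was at −0.12 after rescaling to TPM. Without control library 2 or 3 there were 0 raised and 0 lowered members in limma, and without control library 1, 0 raised and 1 lowered. Without SYD library 3 there were 7 raised and 3 lowered.

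Of 68 tested nuclear genes of the respiratory chain, 2 were raised and 1 lowered, with a median log2 fold change of −0.01, while 16 of 34 tested genes of the mitochondrial genome were raised and 0 lowered, with a median of 3.92. The 72 tested genes of the mitochondrial ribosome had 0 raised and 2 lowered, and the 73 of the cytosolic ribosome 4 raised and 0 lowered. After rescaling to TPM the nuclear respiratory chain, mitochondrial ribosome and cytosolic ribosome lists had 0 raised and 7, 7 and 1 lowered members. Without any 1 of the control libraries the first 2 of these lists had 0 calls. The cytosolic ribosome had 0, 1 and 0 raised without control library 1, 2 or 3 (limma). Glycolysis genes had 0 raised and 2 lowered among 19, among them Hk1, a hexokinase (−1.46). Antioxidant genes had 2 raised and 4 lowered among 30 (0 and 11 after rescaling to TPM, 4 and 7 by voom, 3 and 8 without SYD library 3, and 0 and 0 without control library 3 in limma), the largest falls being Gsta4 and Mgst1, glutathione transferases (−2.67 and −2.17), and Gclc, which starts glutathione synthesis (−1.80). Their median of 0.01 turned to −0.18 relative to all genes after rescaling to TPM. Gapdh, the glycolytic enzyme often used as a reference, had 70.6, 51.7 and 49.0 FPKM in control and 52.7, 78.4 and 56.2 FPKM in SYD (log2 fold change 0.12, and −1.41 after rescaling to TPM, adjusted p = 0.725 and 0.134, limma). Apoptosis genes of the BCL2 and caspase families had 3 raised and 2 lowered among 34. These counts were 0 and 0 without any 1 of the control libraries, 4 and 5 without SYD library 3, and 0 and 6 after rescaling to TPM (limma). The synovial and joint fibroblast list had 5 raised and 1 lowered among 21, and the integrins and matrix receptors 6 raised and 2 lowered among 22, shares of raised members above the 7.75% of all genes. Without control library 1, 2 or 3 the raised counts were 0, 1 and 0 for the fibroblast list and 1, 2 and 0 for the integrin list, both were 0 after rescaling to TPM, and in the fit of all 9 libraries they were 1 and 0 (limma). Fat cell genes had 2 raised and 0 lowered among 21, WNT pathway genes 3 raised and 1 lowered among 32, chondroitin and heparan sulfate synthesis genes 2 raised and 1 lowered among 36, lysosome genes 3 raised and 1 lowered among 34, nerve genes 0 raised and 1 lowered among 9, and small nucleolar RNA genes 2 raised and 4 lowered among 62. Without control library 3 these 6 lists had 0 raised and 1 lowered member, the latter a small nucleolar RNA. Without SYD library 3 they had, in the order given, 1, 4, 2, 11, 2 and 9 raised members and 2, 1, 2, 1, 1 and 5 lowered members (limma).

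**Figure D5:**
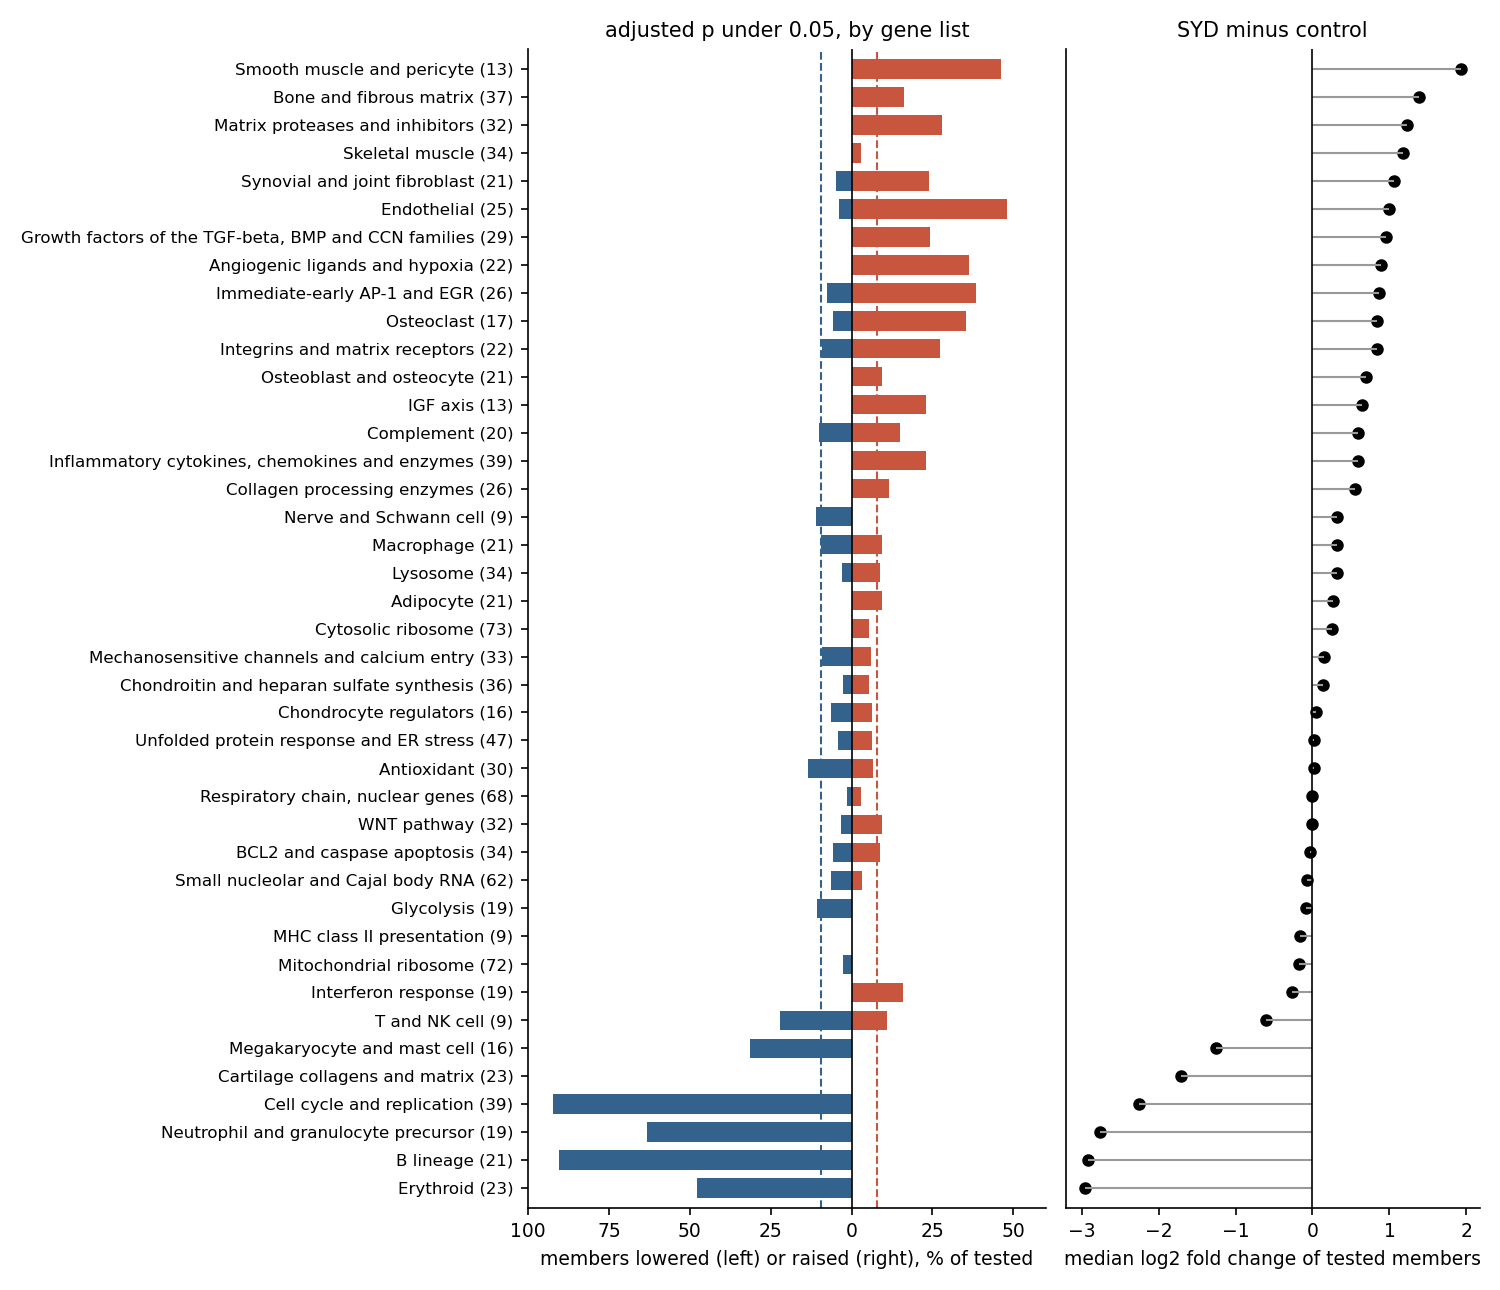
Share of tested members raised (red, right) and lowered (blue, left) at an adjusted p under 0.05, beside the median log2 fold change, for the lists with at least 5 tested members (number in brackets), ordered by the median. Dashed lines mark 7.75% raised and 9.57% lowered among all genes, and the cell cycle, B lineage, neutrophil and erythroid lists reach far beyond the lower line while the smooth muscle, endothelial, immediate-early, angiogenic and osteoclast lists reach beyond the upper one.

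The model libraries, from operated joints without SYD, are set beside those of the SYD group only as values, since both are read against the same 3 control libraries. Acta2 had 2.37, 88.1 and 44.8 FPKM in the model libraries and Mmp3 had 0, 18.3 and 35.3 FPKM, so that model libraries 2 and 3 lay near the SYD libraries and model library 1 near the control. Mki67 had 9.87, 3.61 and 9.80 FPKM and Cd79a 31.4, 1.29 and 23.8 FPKM, below every control library. Ctsk had 364, 1071 and 204 FPKM and Spp1 618, 2406 and 399 FPKM, where model library 2 reached the SYD values and the other two did not. Col2a1 had 606, 39.0 and 56.1 FPKM, below control libraries 1 and 3, as did the SYD libraries. Mitochondrial genes held 90.7% of the reads of model library 1, 39.5% of model library 2 and 81.3% of model library 3, and the part of this in the spread between them was not tested.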

How the data were processed

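RNA of rat knee cartilage had been sequenced in 9 libraries, of which the 3 SYD and the 3 control libraries were compared. Groups were taken from the sample titles. The deposited file is a single FPKM matrix in which the authors also gave gene names, positions, lengths and biotypes. The submitters' processing notes name HISAT2 2.0.5 and a human genome build, whereas the rat build, the annotation and the counting tool are not given in the sources used here. The authors' FPKM had been scaled by an effective library size that differs from the number of reads. This size divided by the reads on genes was 2.01, 2.17 and 2.18 in control libraries 1, 2 and 3. In SYD libraries 1, 2 and 3 it was 1.65, 1.46 and 0.61, lowest where the mitochondrial share was highest. The scaling therefore differed between the groups. Multiplied by gene length, 100% of the values were whole multiples of one step per library (tolerance 0.1), which gave the reads behind each value. Such reads cover counting error only. The number of value columns left out was 0. Per-sample depth was 14914121 to 19510537 reads.

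log2(FPKM + 1) was fitted with limma 3.58.1 in R 4.3.3 (lmFit, and eBayes with a trend) for the 13898 genes with a mean of at least 0.5 FPKM over the 9 libraries. Tests were two-sided, Benjamini-Hochberg adjustment ran over all these genes, and a gene was called raised or lowered at an adjusted p under 0.05. The study's criteria for differential genes were an absolute log2 fold change over 1 at an unadjusted p under 0.05, and are an alternative here. The mitochondrial share was compared with an exact permutation test. The fit was run on simulated data in which both groups had the same spread for each gene. In the libraries the median SD of log2(FPKM + 1) was 0.172 in control and 0.373 in SYD. The simulation therefore does not test the calls under such unequal spread. Tables were made with Python 3.11.15, pandas 2.3.3, NumPy 2.4.6 and SciPy 1.17.1.

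The 42 gene lists and the members named were chosen with earlier results of these data known. Named were the 12 largest rises and falls among called nuclear protein-coding or unclassified genes with a symbol and without overlap between groups, up to 5 called members per direction and the 2 most abundant members of a list, defining cell markers near 0, and genes that the study names. Other genes were named after their values were seen. Where 1 name stood on several entries the most abundant was used, and 4 entries (Nab1, Caprin2, Atf3 and Gapdh) were matched by identifier. Promoters came from RefSeq on GRCr8 and were searched on both strands for CCAAT, the CArG box and TTTGAA, of which the last stood in 10 of the 31 cell cycle promoters and in 4402 of all 27457.

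Alternatives were a pseudocount of 0.1, no filter, a mean of at least 10 FPKM, TPM, rescaling to nuclear genes, quantile normalization, all 9 libraries in one fit, the replicate number as a block, voom on the recovered reads, the study's criteria, and leaving out each library. Leaving out control library 2 and SYD library 3 together was chosen after seeing the data.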

Additional observations from a re-analysis of the deposited data

How the results depend on the processing

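The 2407 calls (1077 raised, 1330 lowered) were 2289 (1007 raised, 1282 lowered) by the study's criteria and 2087 to 2837 with a pseudocount of 0.1, no filter, TPM, nuclear rescaling, quantile normalization, voom, or without control library 2 and SYD library 3 together. A mean of at least 10 FPKM gave 817 calls (435 raised, 382 lowered) among 3020 tested genes. TPM gave 58 raised and 2594 lowered genes, so 97.8% of its calls were falls against 55.3%. Fitting all 9 libraries gave 253 calls (55 raised, 198 lowered). With 1 library left out, calls numbered 209 to 3526, raised genes 55 to 1696 and lowered genes 154 to 1830, the lowest without control library 3 and the highest without SYD library 3, and the difference in mitochondrial share was 24.8 to 49.4 percentage points. With the replicate number as a block, 0 genes passed (0 raised, 0 lowered), 3959 had an unadjusted p under 0.05, and the smallest adjusted p was 0.0524 (limma). Deviations of libraries with the same number correlated at 0.07, −0.19 and −0.14, and those of libraries with different numbers at −0.23 to 0.26. These values do not show whether libraries with the same number belong together. Why the calls were lost under the block was not tested.

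Among the 147 named genes that were tested, directions held in all alternatives that kept the 6 libraries except the following. TPM, which lowers the median of all genes by 1.31, turned 22 of them negative: Acta1 (−0.41), Col1a1 (−0.72), Col1a2 (−0.71), Pcolce (−0.020), Adamts5 (−1.13), Mmp9 (−1.30), Acp5 (−0.26), Atp6v0d2 (−0.15), Siglec15 (−0.48), Bglap (−0.20), Egr2 (−0.44), Klf6 (−0.048), Tgfb1 (−1.45), Il1b (−0.48), Serping1 (−0.14), Ifi44 (−0.11), Erlec1 (−0.23), Selenos (−0.43), Calr (−1.54), P4hb (−1.27), Kcnk2 (−0.12) and Gapdh (−1.41). Quantile normalization turned Col1a1 (−1.66), Col1a2 (−0.72), Bglap (−0.12) and Calr (−0.10), nuclear rescaling Calr (−0.023), and voom Calr (−7.4e-05) and Xbp1 (0.0058). With 1 library left out, the log2 fold change of Acta1 was −0.23 to 2.79, of Adamts5 −0.049 to 0.28, of Mmp9 −0.021 to 0.48, of Tgfb1 −0.031 to 0.22, of Xbp1 −0.17 to 0.15, of Calr −0.076 to 0.15 and of Gapdh −0.050 to 0.28. Without control library 2 and SYD library 3 together, Calr was at −0.086 and Tgfb1 at 0.25. The cause was not tested beyond the construction of each alternative. Of the named genes, 92 lost their call without control library 3 and 7 without SYD library 3. With 3 libraries a group and a mitochondrial share up to 72.7%, low genes in SYD library 3 rest on few reads.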

Other observations

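Outside the gene lists, 14 of the 19 tested immunoglobulin V genes were lowered and 0 raised, with a median log2 fold change of −1.77. One of them, a V gene without a symbol on chromosome 6 (134657094 to 134657417), had 18.0, 15.9 and 12.6 FPKM in control and was listed at 0 in the 3 SYD libraries (adjusted p = 0.00436, limma). V genes are near copies of each other, so reads may be shared between them.

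The largest change of all called entries outside the mitochondrial genome was in an unnamed locus of 757 bases on the minus strand of chromosome 1 (203078175 to 203088703), with 44.1, 70.8 and 4.89 FPKM in control and 1045, 635 and 1779 FPKM in SYD (log2 fold change 5.31, SE 0.99, adjusted p = 0.0226, limma). An entry without a symbol that the table describes as Dusp1, a phosphatase of the immediate-early class, had 6.44, 10.2 and 9.09 FPKM in control and 125, 74.1 and 55.7 FPKM in SYD (log2 fold change 3.11, adjusted p = 0.00807, limma). Rn5-8s, a ribosomal RNA, had 3.05, 6.22 and 6.47 FPKM in control and 91.8, 36.4 and 199 FPKM in SYD (log2 fold change 3.88, adjusted p = 0.017, limma). Actg2, enteric smooth muscle actin, which was on no list, had 0.672, 0.0587 and 0.365 FPKM in control and 7.51, 20.5 and 3.57 FPKM in SYD (log2 fold change 2.81, adjusted p = 0.0284, limma). All 5 were chosen after their values were seen.

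Among unnamed loci, 59 of 632 were raised and 37 lowered, and among long non-coding RNA genes 43 of 414 were raised and 22 lowered, against 7.75% and 9.57% of all genes. By quartile of gene length, 7.19% to 8.30% of genes were raised and 7.85% to 11.1% lowered.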
